A study of Mus musculus with 6 samples.

Results

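The 9 genes described here were Il1a, Il1b, Il1rn, Il1rap, Il1rl1, Il18, Il33, Il23a and Il12a, out of 16081 genes listed for each sample. All 9 were found. They were picked by name, with the difference between SD70 and DMSO in these samples already known, so their changes are given as a description and no p-value is attached to them. The 6 samples are RNA-seq libraries of Lewis cells, a lung carcinoma line of the mouse that the labels call lung adenocarcinoma cells. Of these, 3 were kept with DMSO, the vehicle, and 3 with SD70, an inhibitor of the histone demethylase KDM4C, each for 24 hours. The sources used here give no genotype change and no SD70 dose for the RNA-seq samples, and both groups are a single cell line grown in culture. The study states in general terms that experiments were repeated independently, but the labels do not say that the 3 samples of a group came from separate cultures. If they did not, the p-values given for other genes measure only the spread between these samples, which may be technical.

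The IL-1 family is a group of cytokines that start and shape inflammation. IL-1α and IL-1β bind the same receptor, IL1R1, which signals only after it has recruited the shared co-receptor IL1RAP, and the antagonist IL-1Ra, made from Il1rn, occupies IL1R1 without recruiting it. IL-33 signals through IL1RL1 (ST2) with the same co-receptor, while IL-18 uses IL18R1 with IL18RAP. Il23a encodes the p19 subunit of IL-23 and Il12a the p35 subunit of IL-12, and each forms that cytokine by joining the p40 subunit encoded by Il12b. In tumours these cytokines come from leukocytes and stromal cells as well as from the tumour cells themselves.

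Totals ranged from 15276744 to 17060424 counts per sample, and 11552 genes had enough counts to be tested. Kdm4c stood at 753 ± 34.6 normalized counts under DMSO and at 765 ± 34.2 under SD70 (SD, n = 3 each). The line had high levels of Krt8 (146 ± 4.27 FPKM with DMSO) and of the mesenchymal gene Vim (2489 ± 138 FPKM), and both were lower with SD70 (97.8 ± 5.98 and 1765 ± 81.1 FPKM), whereas the epithelial markers Epcam and Cdh1 did not exceed 1 count in any sample. Krt18 was called lower (log2 fold change -1.22, edgeR adjusted p = 2.97e-07) and Pdgfra, another mesenchymal gene, was at -0.999. The mesenchymal markers did not shift one way, since of the 4 tested 3 were lower and 1, Zeb1, was higher (log2 fold change 0.63, edgeR adjusted p = 2.11e-12). The part of these shifts in the differences described here was not tested. Among the lung lineage markers that were listed, Sftpc did not exceed 1 count and Napsa had 65 to 85 counts. FPKM is the read count scaled by transcript length and by library size, so that different genes can be set side by side. Normalized counts have library size taken out by scaling each sample to the average one, and they serve for comparing 1 gene between samples.

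The regions upstream of the 3 genes that encode the IL1R1 ligands Il1a and Il1b and their antagonist Il1rn are shown first, because all 3 genes had higher mean counts with SD70, although few counts stand behind Il1b and Il1rn. Each run is the 250 bases before a RefSeq start site on GRCm38.p6, read along the gene, with matches to the searched motifs in capitals. The window of Il1a is chr2:129309973-129310222 on the minus strand, that of Il1b chr2:129371140-129371389 on the minus strand and that of Il1rn chr2:24336610-24336859 on the plus strand. RefSeq also holds models that begin further upstream, as its Il1a gene reaches 129310186 and its Il1b gene 129371164.

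Il1a: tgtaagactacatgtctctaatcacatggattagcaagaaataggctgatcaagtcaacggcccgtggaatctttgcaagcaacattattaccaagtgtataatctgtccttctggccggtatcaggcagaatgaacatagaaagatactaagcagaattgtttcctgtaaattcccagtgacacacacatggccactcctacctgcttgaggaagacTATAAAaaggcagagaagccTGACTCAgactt

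Il1b: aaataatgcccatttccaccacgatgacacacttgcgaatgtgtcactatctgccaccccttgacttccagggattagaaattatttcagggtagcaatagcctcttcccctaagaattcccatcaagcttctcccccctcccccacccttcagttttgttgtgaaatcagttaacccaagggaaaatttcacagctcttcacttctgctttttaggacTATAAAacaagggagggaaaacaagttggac

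Il1rn: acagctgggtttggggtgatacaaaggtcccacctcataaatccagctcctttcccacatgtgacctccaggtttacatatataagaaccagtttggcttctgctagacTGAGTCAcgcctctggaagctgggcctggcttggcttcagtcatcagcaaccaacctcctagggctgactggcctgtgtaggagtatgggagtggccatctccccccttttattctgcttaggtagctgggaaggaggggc

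The capitals in Il1a mark a match to the TATA motif 32 to 27 bases before the start site and one to AP-1, TGACTCA, 12 to 6 bases before it. In Il1b they mark a TATA match 31 to 26 bases before the start site. The upstream AP-1 match of Il1rn, TGAGTCA, lies 141 to 135 bases before the start site, and that window holds no TATAAA. Il1rn has 3 windows in all, and the other two, at start sites further downstream, hold none of the searched motifs. Windows were available for 8 of the 9 genes, 13 in all since some genes have several start sites. The missing gene is Il23a, so its upstream region was not searched. Both strands were searched for AP-1 (TGANTCA), the cAMP response element (TGACGTCA), a C/EBP-ATF element (TGATGNAA), TATAAA and the NF-kB consensus, and no matches overlapped. AP-1 was found in 2 of the 13 windows (Il1a and Il1rn), against 6.75% of all 32817 promoter windows of the same length. TATAAA was found in 5 of the 13 windows, which belong to 4 genes (Il1a, Il1b, Il18 and Il33), against 12.4% of all windows. The Il18 match reads TTTATA along the gene and lies 175 to 170 bases before the start site. The Il33 matches lie 203 to 198 bases and 29 to 24 bases before their start sites. The cAMP response element, the C/EBP-ATF element and the NF-kB consensus matched in 0 of the 13 windows, and are present in 1.55%, 3.45% and 3.90% of all windows. A match is a string of letters and says nothing of whether a factor binds there.

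By genome position, Il1a (NCBI Gene 16175) and Il1b (NCBI Gene 16176) lie close together on the minus strand of chromosome 2, with 54597 bases between them in the GENCODE M21 annotation of GRCm38. Il1a runs from 129299610 to 129309972 and Il1b from 129364570 to 129371139. Il1rn (NCBI Gene 16181) lies on the same chromosome from 24336853 to 24351494. Il1rl1 (NCBI Gene 17082) sits in a row of receptor genes on the plus strand of chromosome 1, from 40429570 to 40465415, and Il18r1 begins 136 bases after it ends. Il1rap (NCBI Gene 16180) lies on chromosome 16 from 26581704 to 26730117. Il18 (NCBI Gene 16173) lies on chromosome 9 from 50554827 to 50581840, and Il33 (NCBI Gene 77125) on chromosome 19 from 29925114 to 29960718. Il23a (NCBI Gene 83430) lies on chromosome 10 from 128296139 to 128298752, and Il12a (NCBI Gene 16159) on chromosome 3 from 68690644 to 68698547. All 9 are protein coding. An annotated transcript on the opposite strand shares 11.2% of the exonic bases of Il1a, 4.86% of those of Il1rap and 1.31% of those of Il1b, and since the sources used here give no strand setting for the counting, reads from those stretches cannot be told apart. The counts of all 9 genes were whole numbers in all 6 samples.

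Il23a and Il1a were the genes with the clearest difference between SD70 and DMSO. Each was close to 5 times higher in SD70-treated cells, and in each all 3 SD70 samples lay above all 3 DMSO samples. Il18 was lower and Il1rl1 slightly higher, also with separate groups but neither called, while the shared co-receptor Il1rap was level. Il1b, Il1rn, Il33 and Il12a were present at 7 counts or fewer in every sample and were not tested. Calls came from edgeR's quasi-likelihood test over all 11552 genes. A gene counted as called when its Benjamini-Hochberg adjusted p-value was under 0.01 and it differed by 1 or more log2 units in either direction. In that fit 5 of the 9 genes had enough counts, and 2 of the 5, Il1a and Il23a, were called, both higher. Over all genes tested, 3.29% were called higher and 2.61% lower. Since the choice of genes used this contrast, nothing is read from the count. Groups did not overlap in 4 of the 5 tested genes, against 64.4% of all genes tested.

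**Figure D1:**
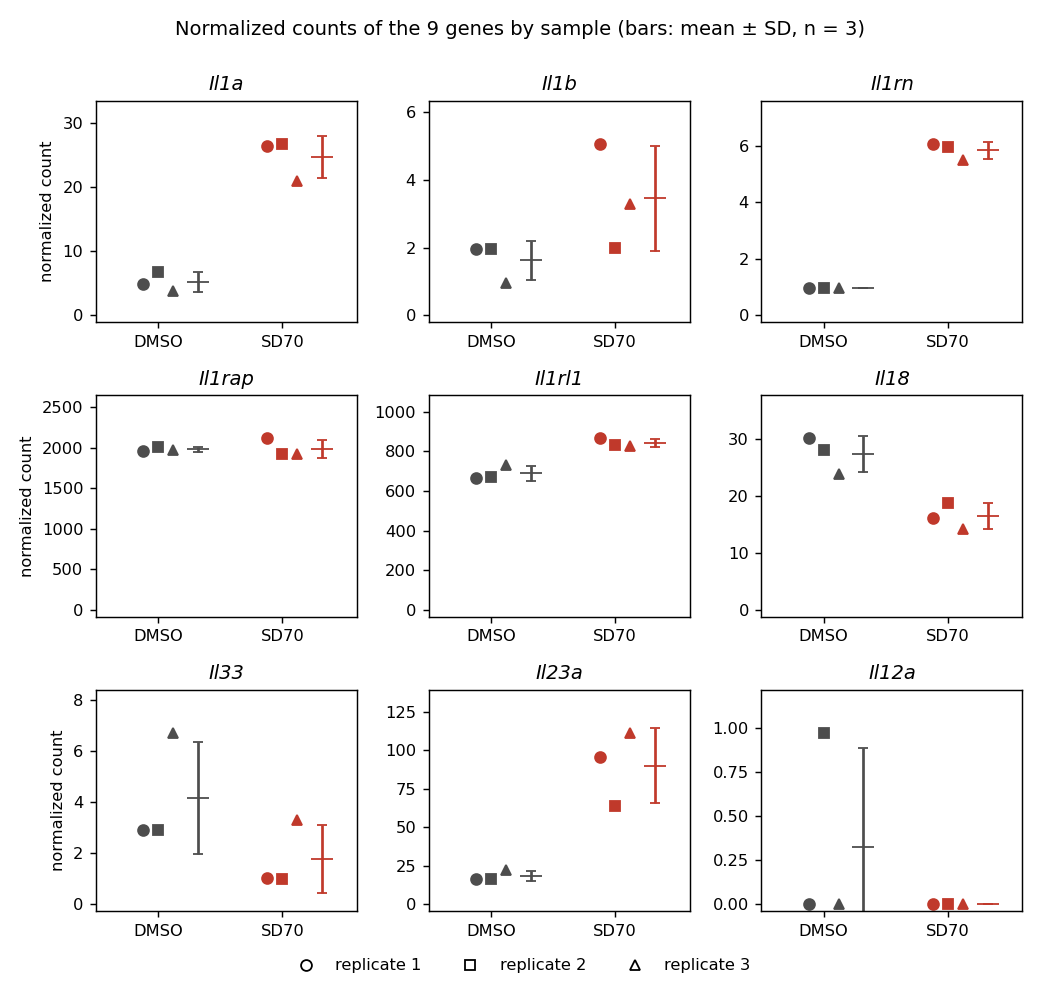
Normalized counts (vertical axes, linear, a different scale for each gene) of the 9 genes in the 3 DMSO and 3 SD70 samples, with symbols for replicates 1 to 3 and bars for mean ± SD. Il1a and Il23a stand apart between the groups, Il18, which was not called, lies lower in the 3 SD70 samples, Il1rap overlaps, and Il1b, Il1rn, Il33 and Il12a rest on very few counts.

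Among the ligands, Il1a encodes IL-1α, a cytokine that is active in its precursor form and acts as an alarm signal when cells are damaged. It was counted 5, 7 and 4 times under DMSO and 26, 27 and 19 times under SD70. The lowest SD70 sample thus held more than the highest DMSO sample, and the groups did not overlap. After normalization the means were 5.17 ± 1.503 under DMSO and 24.7 ± 3.30 under SD70 (SD, n = 3 each). The log2 fold change from edgeR was 2.24 (standard error 0.356, 95% interval 1.51 to 2.96), a 4.71-fold difference. With limma on log2(FPKM + 1), where low genes show compressed differences, Il1a differed by 0.65 and was not called.

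Il1b encodes IL-1β, which is made as an inactive precursor and is cut by caspase-1 to become active. The DMSO samples had 2, 2 and 1 counts of it, against 5, 2 and 3 for SD70. A DMSO and an SD70 sample shared the value of 2 counts, so the raw counts touched. The ratio of the summed counts was 2.14, with a 95% interval from 0.665 to 7.96 that covers counting error only. This interval includes no difference.

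The antagonist Il1rn was at 1 count in each of the 3 DMSO samples and at 6, 6 and 5 counts under SD70. The groups did not overlap, and the ratio of the summed counts was 6.05 (95% counting interval 1.75 to 32.2), resting on 3 counts in the DMSO group. When all genes with at least 1 count were fitted, Il1rn was also called higher, with a fitted log2 fold change of 2.45 that depends on the prior count. Set against the agonists in the same sample, the ratio of Il1rn to the sum of Il1a and Il1b was 0.143, 0.111 and 0.200 under DMSO, against 0.194, 0.207 and 0.227 under SD70. The ranges of the 2 groups overlapped, since the lowest SD70 sample was below the highest DMSO sample. With 1 added to each count the mean ratio was 0.232 under DMSO and 0.229 under SD70, which turned the direction.

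Il18 encodes IL-18, another precursor that caspase-1 cuts and that is known for driving interferon gamma production in lymphocytes. DMSO-treated cells held 31, 29 and 25 counts of it, and SD70-treated cells held 16, 19 and 13. Every SD70 sample was below every DMSO sample. The normalized means were 27.4 ± 3.18 under DMSO and 16.5 ± 2.29 under SD70 (SD, n = 3 each). On the log2 scale the difference was -0.73 (standard error 0.267, 95% interval -1.27 to -0.18). The difference was opposite in sign to that of Il1a, and Il18 was not called with the fold change minimum or without it.

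Il33 encodes IL-33, a nuclear cytokine set free from damaged barrier cells. Counting gave 3, 3 and 7 for the DMSO samples and 1, 1 and 3 for the SD70 samples. The groups touched at 3 counts, and the ratio of the summed counts was 0.411 with a 95% counting interval from 0.115 to 1.23, which includes no difference.

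**Figure D2:**
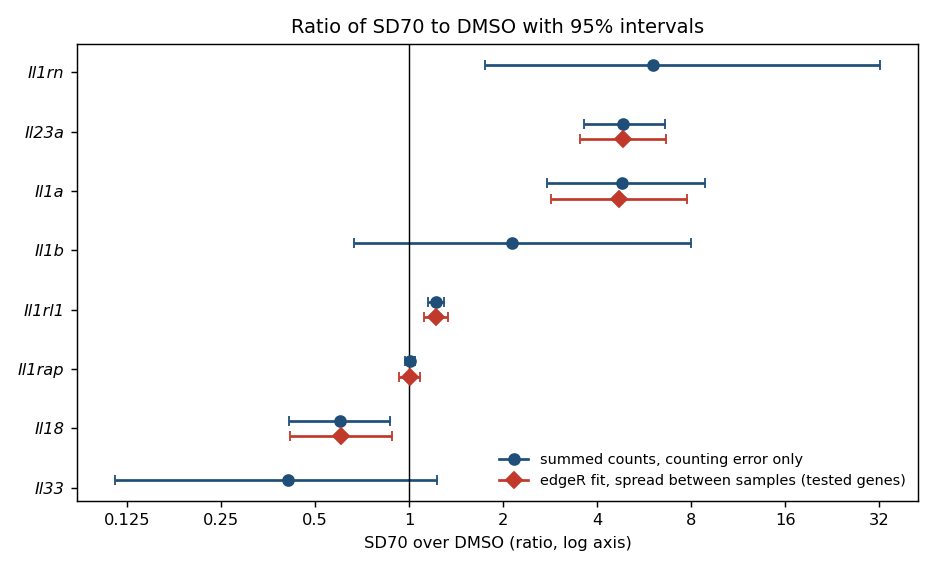
Ratio of SD70 to DMSO (horizontal log axis) for 8 of the 9 genes, as summed counts with 95% counting intervals (circles) and, for the 5 tested genes, as the edgeR fold change with its 95% interval from the spread between samples (diamonds). The intervals of Il1a, Il23a, Il1rn and Il1rl1 lie above 1 and those of Il18 below 1, while those of Il1rap, Il1b and Il33 include 1. Il12a, with 0 counts in every SD70 sample, is not drawn.

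The receptor genes were far more abundant than the ligands. Il1rap, the co-receptor shared by IL-1 and IL-33, was counted 2008, 2067 and 2053 times in the DMSO samples, against 2083, 1935 and 1749 for SD70. After normalization these were 1978 ± 26.5 and 1987 ± 110 (SD, n = 3 each). The groups overlapped. The log2 fold change was 0.01 (standard error 0.0533), with a 95% interval from -0.10 to 0.11.

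Il1rl1 encodes ST2, the IL-33 receptor, as a membrane form and as a soluble decoy form that counts per gene cannot separate. Raw counts were 681, 690 and 765 for the DMSO samples and 854, 839 and 751 for SD70. Once scaled for library size, the DMSO values became 664, 670 and 734 and the SD70 values 867, 833 and 826, with all SD70 samples higher. The log2 fold change was 0.29 (standard error 0.0634, 95% interval 0.16 to 0.42), a 1.22-fold difference. Il1rl1 was thus higher while the counts of its ligand Il33 stayed at 7 or below in every sample.

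Il23a, the p19 subunit of IL-23, a cytokine known for sustaining IL-17-producing lymphocytes, had 17, 17 and 23 counts in the DMSO samples. In the SD70 samples it had 94, 64 and 101 counts. The lowest SD70 sample, replicate 2, was still well above the highest DMSO sample, although the SD70 samples differed more among themselves in proportion to their mean than they did in the other 4 tested genes among the 9. The normalized means were 18.4 ± 3.19 under DMSO and 90.0 ± 24.2 under SD70 (SD, n = 3 each). The log2 fold change was 2.28 (standard error 0.225, 95% interval 1.82 to 2.73), a 4.84-fold difference. It lay between 1.49 and 2.48 over 13 alternative settings, and Il23a was called in all of them.

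Il12a, the p35 subunit of IL-12, had 1 count in DMSO replicate 2 and 0 in the other samples. A count of 0 allows up to 3 counts per library, so no fold is given. Il12b, the p40 partner that both Il23a and Il12a need, was at 0, 1 and 0 counts under DMSO and at 3, 2 and 1 under SD70. Ebi3, which pairs with Il12a in IL-35, was at 0, 3 and 0 counts under DMSO and at 1, 0 and 0 under SD70. The difference in Il23a was therefore measured in cells in which the transcripts of its partner subunit did not exceed 3 counts per library.

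Set side by side per transcript length, the 9 genes spanned a wide range of levels. In DMSO-treated cells Il1rap stood first at 28.5 ± 0.394 FPKM, above 80.1% of all listed genes, followed by Il1rl1 at 12.04 ± 0.437 FPKM, Il18 at 1.85 ± 0.225, Il23a at 0.943 ± 0.153 and Il1a at 0.147 ± 0.0306 (SD, n = 3 each). Below them came Il33 at 0.110 ± 0.0520 FPKM, Il1b at 0.0667 ± 0.0289, Il1rn at 0.03 in every sample and Il12a. The ranges of Il1a and Il33 overlapped, as did those of Il33 and Il1b and those of Il1rn and Il12a, and the other neighbours in this order were apart. For Il1b and Il1rn this holds for FPKM only, since DMSO replicate 3 had 1 count of each.

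With SD70 the order of the leading genes was Il1rap at 27.8 ± 1.502 FPKM, Il1rl1 at 13.9 ± 0.437 FPKM, Il23a at 4.55 ± 1.24, Il18 at 1.13 ± 0.144 and Il1a at 0.797 ± 0.104 (SD, n = 3 each). Il23a and Il18 had changed places. With DMSO, Il18 ranged from 1.63 to 2.08 FPKM and Il23a from 0.85 to 1.12. With SD70, Il23a ranged from 3.2 to 5.64 FPKM and Il18 from 1.02 to 1.29. Among the least abundant genes with SD70, the ranges of Il1b and Il1rn overlapped, at 0.160 ± 0.0557 and 0.157 ± 0.00577 FPKM.

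**Figure D3:**
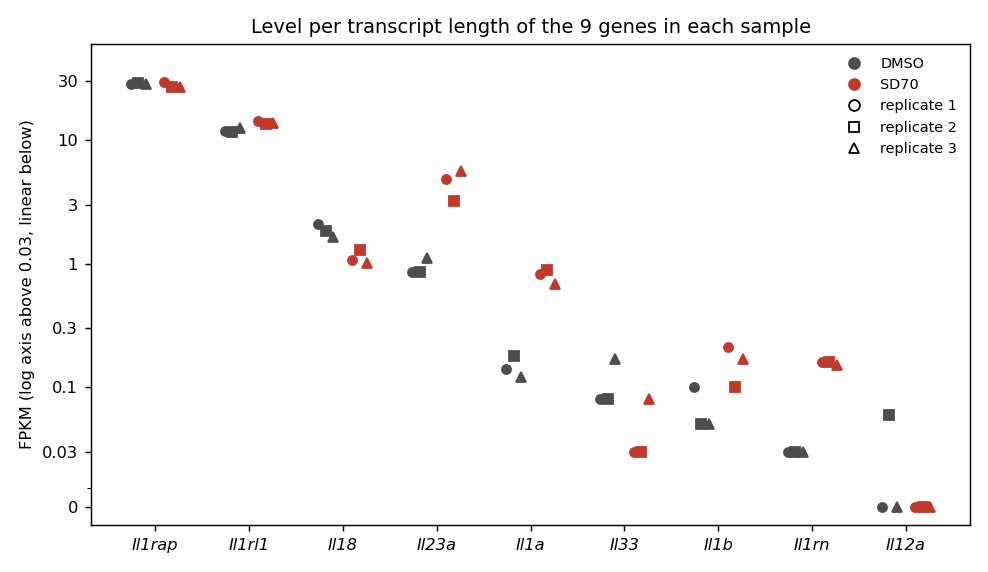
FPKM of the 9 genes in each sample (vertical axis, logarithmic above 0.03 and linear below), ordered by their mean in DMSO, with DMSO in grey, SD70 in red and symbols for replicates 1 to 3. Il1rap and Il1rl1 lie above 10 FPKM in all 6 samples, and Il23a passes Il18 in the SD70 samples.

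For Il1a and Il23a, the genes with the most similar course over the 6 samples were sought among the 9623 genes that averaged 100 normalized counts or more, as the smallest root mean square difference in log2 CPM after each gene's mean had been taken off. Arl11 (0.173), Tmem74 (0.195) and Pde4b (0.205) were nearest to Il1a. Their edgeR log2 fold changes were 1.82, 1.83 and 2.03, against 2.24 for Il1a. The prior count of 2 in the log2 CPM compresses differences in Il1a, with its few counts, more than in these genes. Arl11 counted 289, 362 and 312 under DMSO, then 1135, 1045 and 1000 under SD70. Acot2 (0.202), Snai2 (0.209) and Gpat3 (0.215) were nearest to Il23a. In Acot2, at 65, 67 and 86 counts under DMSO and 236, 249 and 338 under SD70, replicate 3 was the highest sample of each group, as it was in Il23a. With 2 groups of 3 samples this likeness follows the group difference for the most part, and it is a description over 6 samples.

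**Figure D4:**
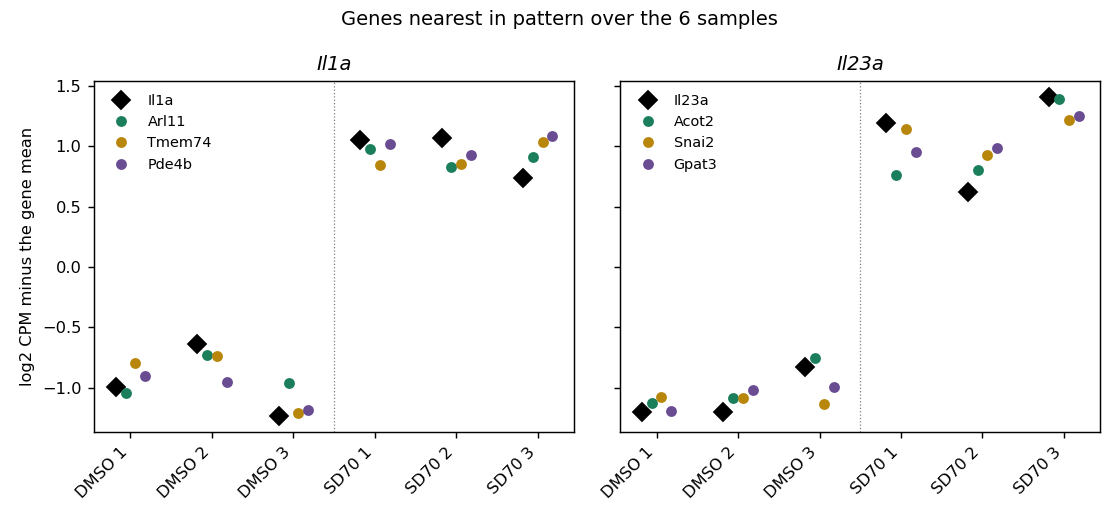
Log2 CPM minus the gene's mean over the 6 samples (vertical axis) for Il1a and Il23a (black diamonds) and the 3 genes nearest to each (coloured circles), by sample. All 8 genes are below their mean in the DMSO samples and above it in the SD70 samples.

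The members were then placed beside 74 listed genes of the same pathways. Of these 58 were tested, 15 were called higher and none lower, while 3.29% of all genes tested were called higher and 2.61% lower. Without regard to the fold change, 27 of the 58 were higher and 8 lower at an adjusted p-value under 0.01 from edgeR, while 25.8% of all genes tested were higher and 24.2% lower at that threshold. No pathway gene was called lower by DESeq2 or limma either, and at an unadjusted p-value under 0.05 from edgeR 31 were higher and 8 lower, against 32.2% and 31.4% of all genes tested. The median log2 fold change of the 58 was 0.15, against -0.00 for all genes tested. Of the 15 called genes, 12 belonged to the list of IL-1 response genes, which was drawn up with the rise of several of its chemokines in these samples known, so the counts over all 58 are largely set by that choice. Without that list 3 of 41 tested genes were called higher, 10 were higher and 8 lower at an adjusted p-value under 0.01 from edgeR, and the median was -0.01.

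Among the receptors, Il1r2 and Sigirr were lower with SD70 and Il18rap was higher, each by less than a call requires. None of the 6 tested receptors and binding proteins was called, 1 was higher and 2 were lower at an adjusted p-value under 0.01 (25.8% and 24.2% over all genes, so the count is near the background), and their median log2 fold change was -0.28. Il1r1, the signalling receptor of IL-1α and IL-1β, had 24.4 ± 0.977 FPKM with DMSO and 23.5 ± 1.09 FPKM with SD70 (SD, n = 3 each), which overlapped, and edgeR put it at -0.02 log2 units (standard error 0.0547) with an adjusted p of 0.760. Il1r1 and Il1rap were thus both expressed at more than 20 FPKM in every sample. Il1r2, the decoy receptor that binds IL-1 without signalling, was counted 84, 105 and 87 times under DMSO and 50, 72 and 29 times under SD70. At -0.78 on the log2 scale (standard error 0.197), with an adjusted p of 0.00141 from edgeR, this was a fall short of the fold change required for a call. It was -1.09 and called without SD70 replicate 2, and -0.55 and not called without SD70 replicate 3, the lowest sample. Sigirr, an inhibitory receptor of the family, also fell, to -0.34 log2 units against DMSO (edgeR adjusted p = 3.51e-04).

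The 2 chains of the IL-18 receptor were far apart. Il18rap, the co-receptor chain, had 101 ± 1.78 FPKM with DMSO and 117 ± 2.83 FPKM with SD70 (SD, n = 3 each), a rise of 0.21 on the log2 scale (standard error 0.0482, adjusted p = 3.35e-04 from edgeR). Il18r1, the chain that binds IL-18, had 0.217 ± 0.0321 FPKM with DMSO and 0.187 ± 0.0321 FPKM with SD70. By edgeR it was at -0.24 log2 units (standard error 0.337), with an adjusted p of 0.557. The ligand Il18 itself was at 1.85 ± 0.225 FPKM with DMSO. Il18bp, the secreted inhibitor of IL-18, was at -0.32 log2 units (standard error 0.225) with an edgeR adjusted p of 0.225.

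Among the genes for processing and release, 14 were tested and 2 were called, both higher (3.29% of all genes tested were). At an adjusted p-value under 0.01 from edgeR 3 were higher and 2 lower, not above the 25.8% and 24.2% of all genes tested. Nlrp3, the sensor that assembles an inflammasome for caspase-1 activation, went from 88, 66 and 86 counts to 599, 583 and 680. By edgeR this was 3.05 log2 units (standard error 0.114) with an adjusted p of 8.47e-19, an 8.30-fold rise with separate groups. Casp4, the caspase that senses cytosolic lipopolysaccharide, rose from 27.6 ± 1.52 to 77.1 ± 2.22 FPKM (SD, n = 3 each), or 1.43 log2 units (adjusted p = 2.22e-20 from edgeR). Casp1, which cuts the precursors of IL-1β and IL-18, had 23.5 ± 1.33 FPKM with DMSO and 25.9 ± 2.01 FPKM with SD70 (SD, n = 3 each), or 0.17 log2 units (adjusted p = 0.0422 from edgeR). Pycard, the adaptor ASC that joins NLRP3 to caspase-1, was at 1, 1 and 0 counts under DMSO and at 0, 0 and 2 under SD70, and was named after its values were seen. Aim2, a sensor of cytosolic DNA, was higher by a log2 fold change of 0.49 (adjusted p = 5.76e-09 from edgeR). Capn1 and Capn2, calpains of the kind that trim the IL-1α precursor, were lower by log2 fold changes of -0.44 (adjusted p = 2.06e-09) and -0.28 (adjusted p = 7.52e-06 from edgeR). Nlrp1a had a log2 fold change of -0.46 (adjusted p = 0.153 from edgeR).

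In the signalling chain below the IL-1 receptor, 15 genes were tested and Myd88 was the single called gene (3.29% of all genes tested were called higher). At an adjusted p-value under 0.01 from edgeR 5 were higher and 2 lower, against 25.8% and 24.2% of all genes tested, so the list is near the background. Myd88, the adaptor that the IL-1, IL-18 and IL-33 receptors share, went from 364, 415 and 387 counts to 719, 785 and 735. By edgeR its log2 fold change of 1.04, with a standard error of 0.0722 and an adjusted p of 1.72e-14, lay close to the threshold of 1, and it was not called without DMSO replicate 1 (1.00), without SD70 replicate 3 (1.00) or on log2(FPKM + 1) (0.96). Tollip, Tab2 and Tab3 rose by 0.36, 0.35 and 0.32 on the log2 scale, and Traf6, the ubiquitin ligase of the chain, fell by 0.30 (adjusted p = 4.33e-05 from edgeR). The median of this list was 0.10.

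The genes for partners, receptors and signalling of the IL-12 family were mostly at few counts, since 5 of the 12 could be tested. None was called, while 3.29% of all genes tested were called higher and 2.61% lower. At an adjusted p-value under 0.01 from edgeR 1 was higher and 2 were lower, against 25.8% and 24.2% of all genes tested. With 5 genes nothing is read from these counts. Il23r, the receptor chain particular to IL-23, did not exceed 1 count in any sample. Il12rb1, the receptor chain shared by IL-12 and IL-23, fell by 0.42 on the log2 scale (standard error 0.139, adjusted p = 0.00988 from edgeR). Il12rb2 was at 5, 4 and 11 counts under DMSO and at 5, 6 and 15 under SD70. Stat3, through which the IL-23 receptor signals, fell by 0.40 (standard error 0.0540, adjusted p = 9.44e-08 from edgeR), while Il6st, the shared receptor gp130, rose by 0.32 (adjusted p = 1.96e-06 from edgeR). The kinase gene Jak2 had a log2 fold change of -0.03 (adjusted p = 0.686 from edgeR). Of the remaining IL-1 family ligands, Il1f9 (IL-36γ) was at 16, 18 and 12 counts under DMSO and at 8, 15 and 8 under SD70, or -0.47 log2 units, with an edgeR adjusted p of 0.251, and Il1f6 (IL-36α) did not exceed 4 counts.

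The list of IL-1 response genes, genes that cells are known to switch on after IL-1, stood out. All 17 tested were higher with an adjusted p-value under 0.01 from edgeR, against 25.8% of all genes tested. Of the 17, 12 were called higher, against 3.29% of all genes tested, and the median log2 fold change was 1.82. Since it was drawn up with such rises known, the list is no independent evidence of its direction, and many of these genes also respond to other signals. The largest rise was that of Csf2, from 105, 99 and 109 counts to 2415, 2104 and 1924 (4.46 log2 units, edgeR adjusted p = 1.58e-30). Icam1, an adhesion molecule for leukocytes, went from 4, 5 and 6 counts to 65, 70 and 65, which edgeR put at 3.80 log2 units (standard error 0.279) with an adjusted p of 6.71e-14. Vcam1, another such molecule, went from 24, 11 and 18 counts to 49, 53 and 53, which edgeR put at 1.64 log2 units (standard error 0.241) with an adjusted p of 4.57e-07. With limma on log2(FPKM + 1) it differed by 0.59 and was not called. Saa3, an acute phase protein, and Mmp13, a collagenase, rose by 2.17 and 1.96 on the log2 scale. The log2 fold changes of the cytokine genes Csf3, Ccl20, Cxcl2, Ccl2 and Cxcl1 were 2.87, 3.08, 2.57, 2.03 and 1.82 in that order. Il6, named after its values were seen, was not tested, at 1, 3 and 3 counts under DMSO and 10, 7 and 3 under SD70.

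**Figure D5:**
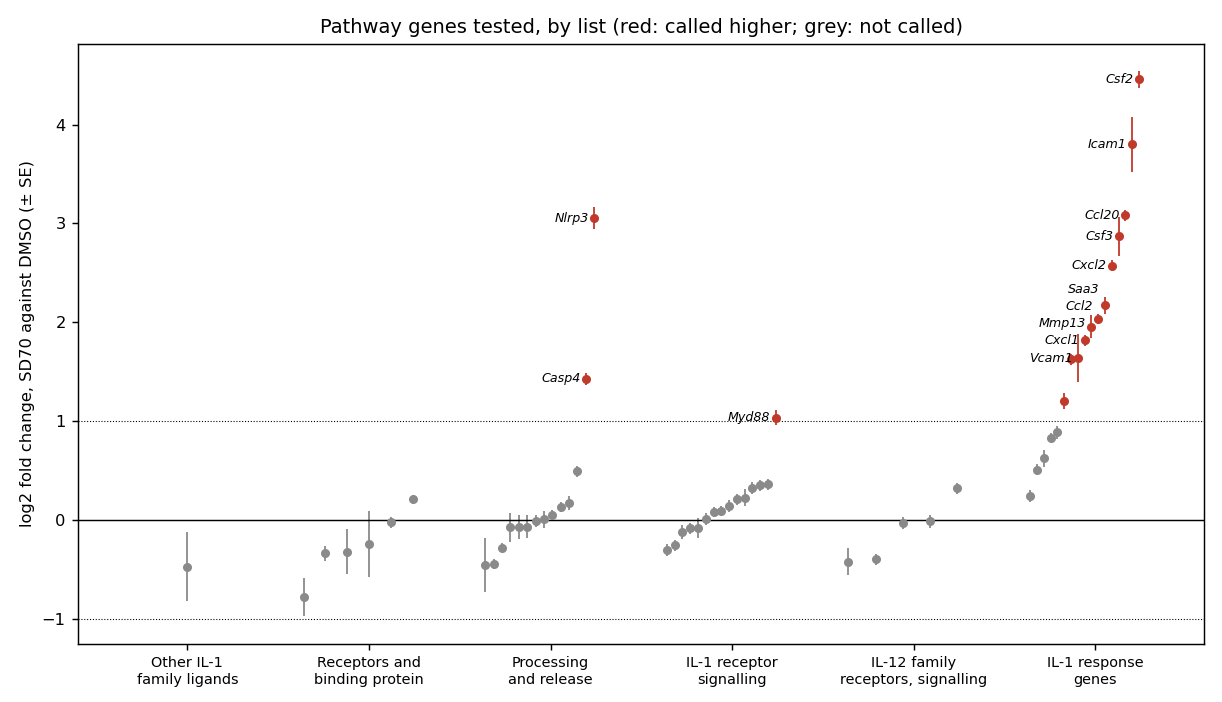
Log2 fold change of SD70 against DMSO (vertical axis, ± standard error from edgeR) of the 58 tested pathway genes in 6 lists, ordered by value within each list, with called genes in red and the call threshold of 1 in either direction dotted. Most called genes lie in the list of IL-1 response genes, while the receptors and the IL-12 family stay within 1 of no change.

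Il1b, Il1rn, Il18 and Il23a are also made by leukocytes, and in bulk samples fewer cells of a type and less RNA per cell cannot be told apart, so markers of other cell types were examined. Of 15 leukocyte and myeloid markers 10 were listed, with a summed level from 35.2 to 35.8 CPM with DMSO and from 41.2 to 42.7 with SD70. This level is each library's counts of the 10 genes scaled by its size. The sum came mostly from Cd14, which was higher (251 ± 6.82 and 429 ± 22.1 normalized counts), and Cd68, which was lower (240 ± 6.01 and 172 ± 16.2, SD, n = 3 each). The means of Laptm5 (65.9 ± 13.3 and 53.4 ± 11.9) and Cd79a (13.2 ± 4.45 and 7.47 ± 3.95) were lower with SD70. That of Lyz2 was higher (12.3 ± 1.91 and 21.2 ± 4.95). None of Laptm5, Cd79a and Lyz2 had an adjusted p-value under 0.01 from edgeR. Ptprc, the defining leukocyte marker CD45, had 0 counts in each DMSO sample and 2, 1 and 2 under SD70, and Csf1r did not exceed 1 count. Of 6 mast cell markers, cells known for Il1rl1, 2 were listed, with a summed level of 0.176 to 0.232 CPM under DMSO and 0.332 to 0.420 CPM under SD70. Kit had 1 count in all 6 samples together and Hdc between 3 and 7 counts per sample. Of 6 endothelial markers 5 were listed, summing to 3.41 to 4.00 CPM under DMSO and 3.84 to 4.72 CPM under SD70. The endothelial markers Pecam1, Kdr, Tek and Vwf did not exceed 4 counts in any sample, and Cdh5 had 56 to 65 counts. The part of such cells in the differences of Il1a, Il1rn and Il23a was not tested.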

How the data were processed

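Total RNA of 3 DMSO and 3 SD70 samples was sequenced on the BGISEQ-500 platform. The authors aligned clean reads with HISAT to GRCm38.p6 according to the study's methods, whereas the submitters' processing notes name the build mm8 and StringTie 1.3.3b. The labels' extraction text describes ground tissue although the samples are cells. The counting tool and its strand setting are not given in the sources used here. For each gene the authors deposited an expected count, not normalized, and its FPKM, a level per transcript length and library size.

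Expected counts were rounded, filtered with filterByExpr, scaled by TMM (factors 0.984 to 1.02) and fitted in edgeR 4.0.16 (R 4.3.3) by robust glmQLFit, then glmQLFTest, with Benjamini-Hochberg adjustment over 11552 genes. Standard errors came from the quasi-likelihood F statistic. Counting intervals for summed counts are exact (Clopper-Pearson) at 95% and cover counting error only. With 3 samples against 3, an exact permutation test of 1 gene cannot go below p = 0.1, so none is given.

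The genes described and the lists were chosen with earlier results of these data known. Named genes are the 9 genes, Kdm4c, up to 6 called and 4 further genes of each list by absolute log2 fold change, partners and receptors of the 9, and the 3 nearest genes in pattern (log2 CPM with a prior count of 2). Alternatives were DESeq2's size factors, the Wald test of DESeq2 1.42.0, limma 3.58.1 on log2(FPKM + 1) and log2(FPKM + 0.1), 2 other filters on low counts, 2 other thresholds, the replicate number as a block and leaving out each sample in turn. On simulated data with 200 genes changed by a log2 fold change of 2, edgeR recovered 200 of 200 among 11536 genes tested. The changed genes were drawn only from genes with mean counts well above those of Il1a and Il18. This check therefore does not cover genes with so few counts. As a check for a library deposited more than once, samples of a group were compared in pairs and differed by more than counting noise (chi-square of 2.12 to 4.97 per gene), which does not show that they are separate cultures. Promoter windows are RefSeq's on GRCm38.p6, and loci are from GENCODE M21.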

Additional observations from a re-analysis of the deposited data

How the results depend on the processing

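The fold change minimum moved the counts of pathway genes and of all genes called most. At 7 counts or fewer per sample, 4 of the 9 genes were not tested. Of the 9 genes, 2 were called, and 1 was called when at least 10 counts were required in every sample, which removed Il1a from the test, or on log2(FPKM + 1), where Il1a had a log2 difference of 0.65. It was 3 when all genes with at least 1 count were fitted, which added Il1rn, and 3 without a fold change minimum, which added Il1rl1. The pathway genes called higher went from 15 to 27 without a fold change minimum, and those called lower from 0 to 8. Leaving out 1 sample at a time gave between 0 and 1 pathway genes called lower, namely Prtn3 (named after its values were seen) without DMSO replicate 2 or SD70 replicate 1 and Il1r2 without SD70 replicate 2 (-1.09). All genes called went from 681 to 283 on log2(FPKM + 1) and to 5767 without a fold change minimum, and leaving out 1 sample gave 621 to 721. Il1rap was near 0 throughout and changed sign with at least 10 counts in every sample (-0.00442), on log2(FPKM + 1) (-0.0365) and log2(FPKM + 0.1) (-0.0377), and ranged from -0.0393 to 0.0322 when 1 sample was left out. Kdm4c went to -0.00710 and -0.00763 on the 2 FPKM scales and from -0.0237 to 0.0551 without 1 sample, Il1r1 from -0.0573 to 0.0213 and Jak2 from -0.0716 to 0.00132. The ratio of Il1rn to Il1a plus Il1b, 0.151 with DMSO and 0.209 with SD70, became 0.232 and 0.229 with 1 added to each count, and 0.165 with SD70 on FPKM. Without 1 sample, an alternative chosen after seeing the data, it ranged from 0.127 to 0.171 with DMSO and from 0.200 to 0.217 with SD70. Of 504 values for 39 named genes under these alternatives, 485 kept direction and call. Other causes were not tested.

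With the replicate number as a block, 2 of the 9 genes, 15 pathway genes and 692 of all genes were called, and no call among the 9 genes or the pathway genes changed. The labels name no culture, day or batch shared by a number, and the numbers were not taken to pair samples. Deviations of same-numbered samples from their group means correlated with r = 0.176, 0.254 and 0.157 across the 9623 more abundant genes (mean of 100 or above), each sample correlating best with its own number, but with r = -0.07, 0.05 and 0.11 across all 11552 genes tested.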
